A study of Mus musculus with 24 samples.

Results

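The comparison of decellularized extracellular matrix (ECM) with the saline control injury in C57BL/6 (B6) mice was examined at day 21, from 6 bulk RNA libraries of quadriceps muscle out of 24 in the series. The 6 libraries were chosen by their labels, 3 from ECM-treated B6 mice and 3 from saline-treated B6 mice, and all 14159 genes with a symbol were tested. All B6 mice were young adult females with no engineered allele. According to the study, both groups carried a volumetric muscle loss wound, a surgical removal of part of the quadriceps. The wound was filled with saline vehicle in the control injury, or with decellularized porcine small intestinal submucosa in the ECM group. The remaining libraries served for reference levels and also entered the shared variance of the fitted model, on which the main p-values rest. They came from uninjured B6 mice, B6 mice given polyethylene powder (PE) and the same 4 treatments in MRL/MpJ (MRL) mice. The MRL strain closes ear wounds well. Each library was made from a whole quadriceps, so wound, implant and spared muscle were read together, and fewer cells of a type cannot be told apart from less RNA per cell.

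Implanted ECM scaffolds are known for a type 2 immune response, in which helper T cells and innate cells release cytokines that act on macrophages through the factor STAT6. Mouse macrophages that receive these cytokines take on alternative activation and make arginase, chitinase-like and resistin-like proteins and a set of lectin receptors. Muscle also holds interstitial fibroblasts, marked by the growth factor receptor Pdgfra, which build the matrix between the fibres and take part in repair.

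The ECM and saline libraries differed in few genes beyond the spread between libraries in the model as fitted, and those few were higher with ECM. Only 4 of 14159 genes, 0.0283%, passed an adjusted p of 0.05 (limma, fitted over all 24 libraries, Benjamini-Hochberg adjustment), and all 4 rose: Rnase2a, Chil3, Arg1 and Mrgprg. No gene fell by this test (0.0% of genes). The count depended on the model: weighting each library by its own spread called 81 genes, 55 higher and 26 lower, with all 4 among them. At an unadjusted p under 0.05 there were 565 genes, 3.99% of those tested, with 280 higher (1.98%) and 285 lower (2.01%). The 3 ECM libraries lay above all 3 saline libraries for 642 genes (4.53%) and below them for 530 genes (3.74%), and each such gene has an exact permutation p of 0.10, the smallest that 3 against 3 libraries allow. The median log2 fold change of all genes was 0.03.

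**Figure D1:**
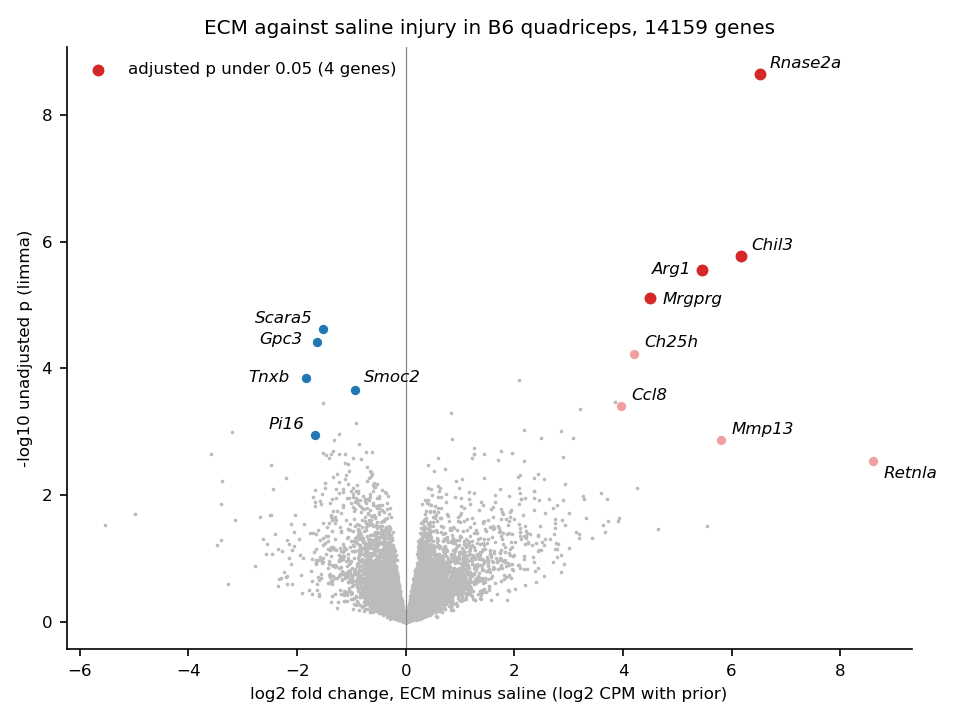
Each point is 1 of 14159 genes, with the log2 fold change of ECM minus saline in B6 mice on the x axis and −log10 of the unadjusted limma p on the y axis. The 4 called genes, in large red points, all lie to the right, and the lowest p-values to the left belong to Scara5, Gpc3 and Tnxb.

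Saline replicate 2 stood apart from the other 2 saline libraries in some genes, and saline replicates 1 and 2 stood apart from the third in another set. Myl4, an embryonic myosin light chain that regenerating fibres make, stood at a log2 CPM (CPM, the reads of a gene scaled to library size, with a prior count added) of 1.70 in saline replicate 2 against 6.18 and 6.69 in the other saline libraries, and uninjured muscle spanned 1.60 to 2.55. Ncam1, an adhesion molecule of regenerating and denervated fibres, stood at 2.57 against 6.47 and 6.28. The haemoglobin gene Hba-a1 was higher in saline replicate 2, at 8.48 against 6.21 and 5.54, and uninjured muscle spanned 8.29 to 9.44. For these genes saline replicate 2 was within or near the range of uninjured muscle, and the 3 ECM libraries were not. The place of saline replicate 2 in the control injury group could not be checked further and was kept, so every saline mean below includes this library. Csn3, a milk casein that mammary tissue makes, stood at 5.98 in saline replicate 3 and at −2.66 and −1.60 in saline replicates 1 and 2, against 5.77, 6.31 and 6.27 in the ECM libraries. Lcn2, a secreted iron-trapping lipocalin, had the same order, at 4.72 in saline replicate 3 and −1.90 and −1.64 in replicates 1 and 2, against 3.79 to 4.57 with ECM. Uninjured and PE libraries were also high for Csn3 and Lcn2. The median change of the milk list was 2.43 (7 of 9 genes measured). Its summed level overlapped, at 95.3, 190 and 163 CPM with ECM and 171, 8.41 and 312 CPM with saline. The part of these library differences in other results was not tested. Muscle was present in every library as labelled: the skeletal actin gene Acta1 stood between 13.81 and 14.48 with ECM and between 14.24 and 14.98 with saline, and all 30 genes of the adult fibre list were measured. Pearson's correlation of log2 CPM across genes ranged from 0.904 to 0.962 within the groups and from 0.926 to 0.955 between them.

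**Figure D2:**
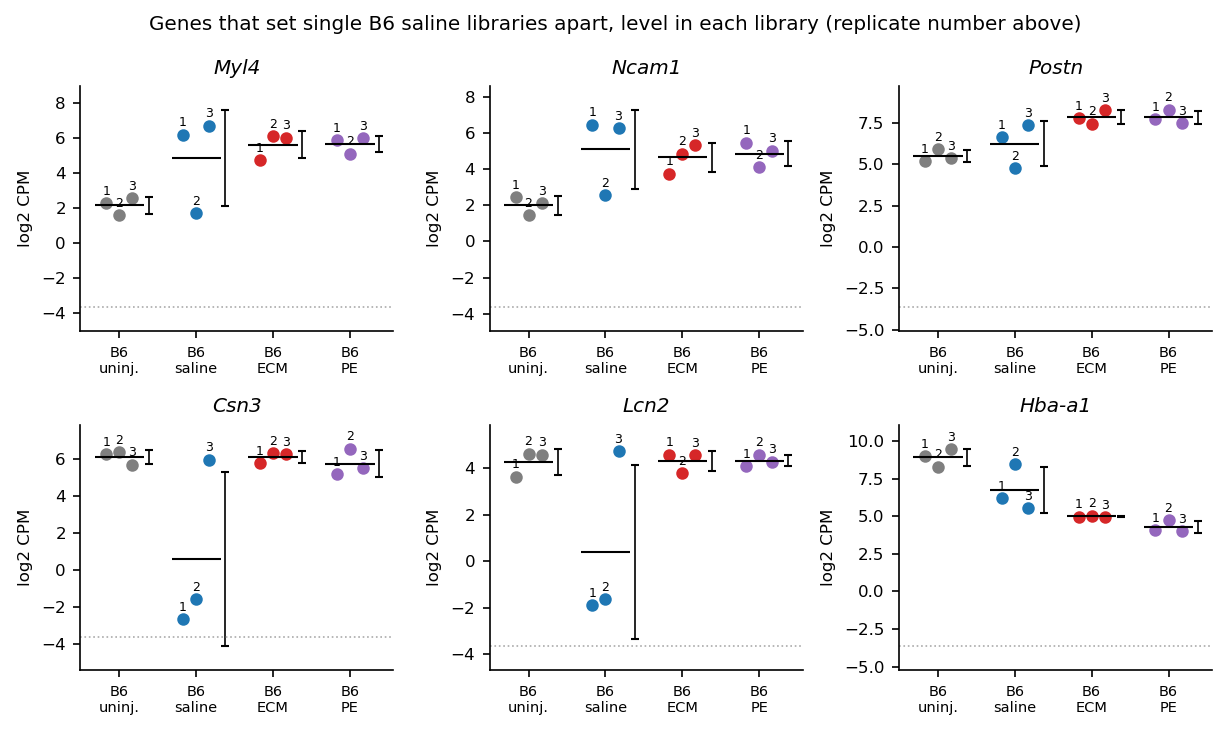
Log2 CPM of 6 genes in the B6 libraries, with the replicate number above each point, the group mean as a line and ± 1 SD as a bar to its right; the dotted line marks a count of 0. Saline replicate 2 is low for Myl4, Ncam1 and Postn and high for Hba-a1, and saline replicates 1 and 2 are low for Csn3 and Lcn2.

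Rnase2a, also named Ear11, belongs to the family of eosinophil-associated ribonucleases and lies on chromosome 14 (51492719 to 51493595, minus strand, GRCm39). Its log2 CPM was 5.24, 2.78 and 2.80 in the ECM libraries and −3.09, −3.06 and −2.57 in the saline libraries. The groups were far apart, and ECM replicate 1 was the highest. All 3 uninjured libraries were at a count of 0, which allows up to 3 counts or a log2 CPM of −2.33 at the mean library size, counting error only. Rnase2a rose by a log2 fold change of 6.51 (SE 0.62, adjusted p = 3.24e-05). At the mean library size the 3 saline libraries together held about 4 reads and the ECM libraries about 1293, a ratio of 323 with a 95% counting interval of 126 to 1188 (exact binomial). The saline level was at the limit of detection, so the fold change depends on the prior count that the deposited values carry.

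Chil3, a secreted chitinase-like protein also called Ym1, lies on chromosome 3 (106054870 to 106074880, minus strand). Its log2 CPM was 8.91, 4.36 and 5.94 with ECM and −0.07, 0.52 and 0.23 with saline. The lowest ECM library was above the highest saline library by several log2 units, while the ECM libraries were spread far more widely than the saline ones. Chil3 rose by 6.17 (SE 0.91, adjusted p = 0.012), or about 14115 reads against 84. Its transcript is 94.0% identical to that of Chil4 over the full length of the shorter one. Chil4 has no row of its own in the matrix, so how reads were divided between the pair could not be checked here.

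Arg1, the arginase that turns arginine into ornithine, lies on chromosome 10 (24791118 to 24803817, minus strand). Its log2 CPM was 8.51, 5.19 and 5.88 with ECM and 0.75, 1.10 and 1.37 with saline, again without overlap and again highest in ECM replicate 1. Arg1 rose by 5.45 (SE 0.83, adjusted p = 0.0133), and its linear level was between 36.4 and 365 CPM with ECM and between 1.60 and 2.50 CPM with saline.

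Mrgprg, an orphan receptor of the Mas-related family, lies on chromosome 7 (143317447 to 143320733, minus strand). Its log2 CPM was 1.73, 2.12 and −0.07 with ECM and −3.65, −3.06 and −3.02 with saline, where −3.65 is a count of 0. The ratio of about 211 reads to 2 reads was 106, with a counting interval of 28.8 to 877, and the fitted log2 fold change was 4.5 (SE 0.74, adjusted p = 0.0277). In contrast to the other called genes, ECM replicate 1 was not the highest.

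The calls differed in how far they rested on single libraries. Rnase2a kept its call when any 1 of the 6 libraries was left out, with log2 fold changes of 5.70 to 6.93 (limma). Chil3 and Arg1 lost theirs without ECM replicate 1 (4.92 and 4.46, limma adjusted p = 0.0822 and 0.0839), without saline replicate 1 (6.03 and 5.29, adjusted p = 0.0839 and 0.103) and without saline replicate 2 (6.32 and 5.47, adjusted p = 0.0685 and 0.076). Mrgprg lost its call without any 1 of ECM replicates 1 and 2 and saline replicates 1 and 2 (adjusted p of 0.106 to 0.186). With the variance estimated from the 6 libraries alone, no gene was called (limma, 576 genes at an unadjusted p under 0.05), and the adjusted p was 0.33 for Rnase2a, Arg1 and Mrgprg and 0.399 for Chil3.

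The promoters of these genes are shown because alternative activation genes are classed as STAT6 targets. RefSeq (GRCm38.p6) held 8 of the 11 promoters looked up, with no entry for Arg1, Ccl7 or Scara5. The 250 bases upstream of the start were searched on both strands for TTC and GAA spaced by 4 bases (STAT6 type, in 5.85% of 32851 promoters), GAGGAA (PU.1 type, 23.3%) and CANNTG (E-box, 66.2%). Capitals mark STAT6-type and PU.1-type matches. Rnase2a (chr14:51256113-51256362, minus strand), Chil3 (chr3:106167565-106167814, minus strand), Mrgprg (chr7:143766994-143767243, minus strand) and Retnla (chr16:48842359-48842608, plus strand) read 5′ to 3′ as follows.
Rnase2a: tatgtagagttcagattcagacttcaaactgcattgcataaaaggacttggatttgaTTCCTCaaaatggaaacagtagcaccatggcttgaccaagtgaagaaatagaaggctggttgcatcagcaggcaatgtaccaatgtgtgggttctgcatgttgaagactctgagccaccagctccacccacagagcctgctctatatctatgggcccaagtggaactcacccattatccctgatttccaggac
Chil3: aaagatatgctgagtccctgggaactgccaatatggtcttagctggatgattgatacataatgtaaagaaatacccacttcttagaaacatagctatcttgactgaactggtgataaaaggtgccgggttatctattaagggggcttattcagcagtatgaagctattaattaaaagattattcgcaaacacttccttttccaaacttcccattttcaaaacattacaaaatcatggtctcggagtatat
Mrgprg: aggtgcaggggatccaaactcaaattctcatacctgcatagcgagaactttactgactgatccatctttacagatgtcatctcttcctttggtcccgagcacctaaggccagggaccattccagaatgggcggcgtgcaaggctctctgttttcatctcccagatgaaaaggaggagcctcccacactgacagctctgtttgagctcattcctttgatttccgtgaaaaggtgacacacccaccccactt
Retnla: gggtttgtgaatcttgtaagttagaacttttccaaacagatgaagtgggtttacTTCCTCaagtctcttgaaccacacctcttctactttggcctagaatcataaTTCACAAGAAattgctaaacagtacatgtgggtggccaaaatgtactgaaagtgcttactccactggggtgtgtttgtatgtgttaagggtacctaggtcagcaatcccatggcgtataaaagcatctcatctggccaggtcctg
The STAT6-type letters occurred only in Retnla among the 8, from base −145 to −136. PU.1-type letters occurred in Rnase2a, Retnla, Ccl8 and Mgl2. The Chil3 window held none of the 3 patterns, which says only that these letters are not in this window.

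The wider alternative activation list leaned the same way as its called members but mostly did not pass the test. Of 29 listed genes 22 were measured and 2 were called (Chil3 and Arg1), against 0.0283% of all genes. At an unadjusted p under 0.05, 6 were higher and 0 were lower (1.98% and 2.01% of all genes). ECM libraries lay above all saline libraries for 7 of the 22 and below for 1, against 4.53% and 3.74% of all genes. The list's median log2 fold change was 0.75, against 0.03 for all genes, and it dropped to 0.21 without ECM replicate 1.

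Retnla, the resistin-like molecule Fizz1, had the largest fitted difference of the list and did not pass. Its log2 CPM was 8.50, 4.18 and 6.16 with ECM and −1.04, −2.28 and −3.65 with saline, a log2 fold change of 8.61 with an SE of 2.52 (adjusted p = 0.788, limma). The B6 groups did not overlap. Retnla was spread over many log2 units in several other groups of the fit. It reached 1.79 in 1 uninjured library, 3.87 in 1 PE library and 4.52 in 1 MRL saline library. The part of that spread in the p-value was not tested. Retnla was called in 0 of 14 alternative fits (lowest adjusted p = 0.111, limma). Mgl2, a galactose-binding lectin of the same macrophages, was 6.66, 3.64 and 4.63 with ECM and 2.90, 3.35 and 2.79 with saline (1.96, SE 0.55, adjusted p = 0.766). Its transcript shares stretches over 90% identical with Clec10a. The mannose receptor Mrc1 (CD206) overlapped between the groups: 8.09, 5.40 and 6.55 against 4.76, 5.46 and 4.88 (1.65, SE 0.58, unadjusted p = 0.00995). Gata3, the master factor of type 2 helper cells, was 2.74, 1.45 and 1.34 against −1.07, 0.55 and 1.55, with overlap. Of the study's own 9 M1/M2 genes, 2 were called (Chil3 and Arg1), against 0.0283% of all genes. The median of the 9 was 0.57. They were chosen on these samples and so are no independent evidence of direction. The study's 9 HGF and immune genes, with the same limit, had 0 called, 1 higher at an unadjusted p under 0.05 (1.98% of all genes were) and a median of 1.32.

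**Figure D3:**
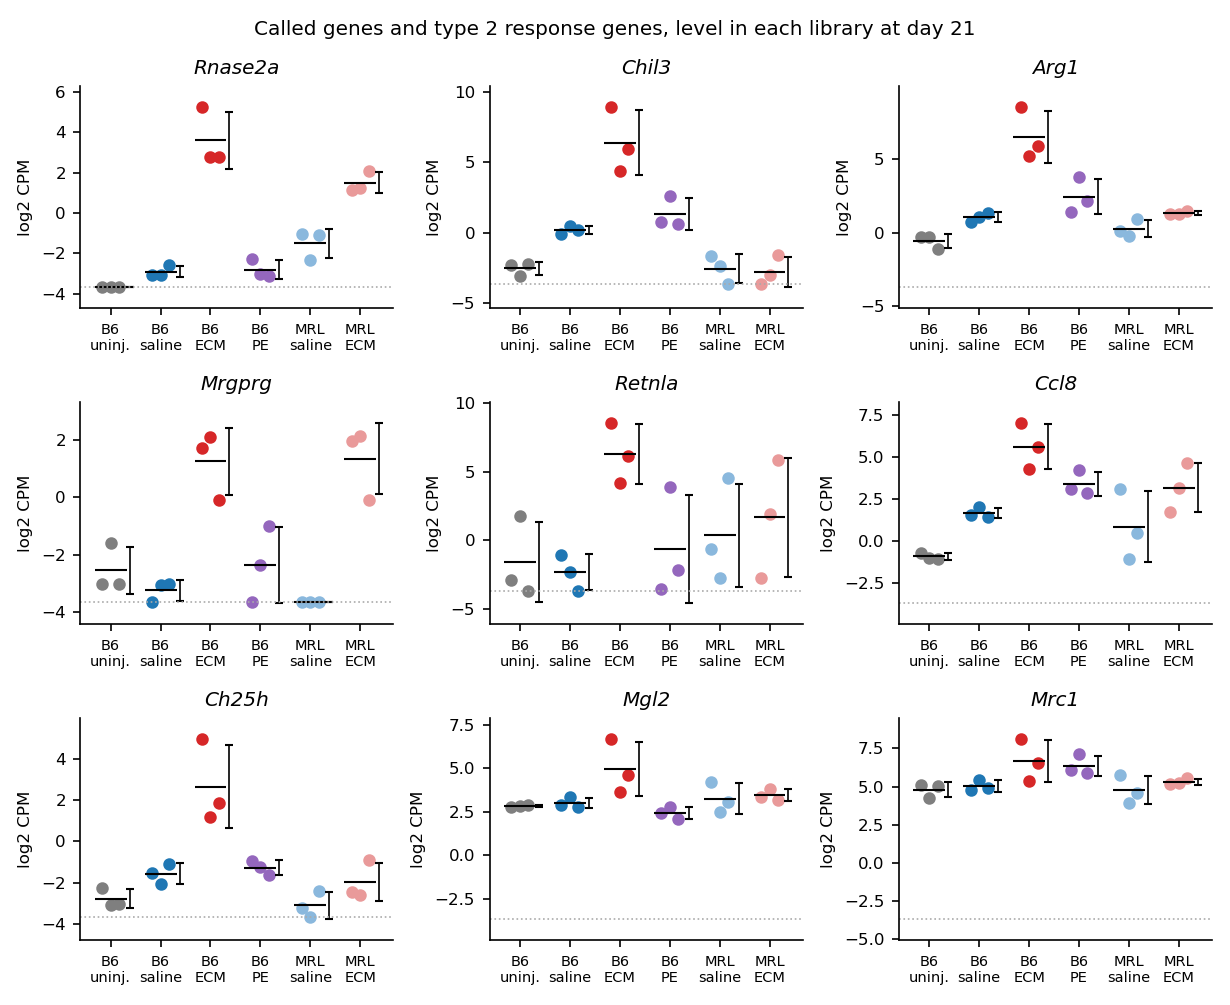
Log2 CPM of 9 genes in 6 groups of 3 libraries each, with every library as a point in replicate order, the mean as a line and ± 1 SD as a bar to its right; the dotted line marks a count of 0. For Rnase2a, Chil3 and Arg1 the B6 ECM libraries are above all other libraries plotted, and for Mrgprg the MRL ECM libraries are at the same height as the B6 ECM ones.

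Eosinophils, the granulocytes of type 2 responses, could hardly be followed in this matrix, although Rnase2a belongs to a ribonuclease family named after them. Of 11 listed eosinophil genes only 2 had a row after the authors' filter on low values. Siglecf, the lectin that defines mouse eosinophils, was near the detection limit and overlapped: −0.57, −3.06 and −1.21 with ECM and −1.86, −0.74 and −2.17 with saline. Ear2, another member of the ribonuclease family, was 2.5, 1.44 and 2.74 with ECM and 0.60, 1.64 and 0.67 with saline (1.25, SE 0.52, unadjusted p = 0.0273), and shares over 90% identity with Ear1 and Ear10. The summed level of the 2 genes ranged from 2.67 to 6.95 CPM with ECM and from 1.63 to 3.56 CPM with saline, and its part in the Rnase2a result was not tested.

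Several chemokines that attract monocytes were higher with ECM without overlap, and none passed the test. ECM libraries lay above all saline libraries for 8 of 44 chemokine and chemokine receptor genes and below for 4 (4.53% and 3.74% of all genes). Of the 44 genes 0 were called, 7 were higher and 2 lower at an unadjusted p under 0.05 (1.98% and 2.01% of all genes), and their median was 0.13. Ccl8, a ligand for monocytes and eosinophils, was 6.98, 4.29 and 5.57 with ECM and 1.53, 1.99 and 1.46 with saline (3.96, SE 0.92, adjusted p = 0.433). Ccl7 was 4.82, 1.51 and 2.81 against −0.47, 0.40 and −0.43 (3.21, SE 0.76, adjusted p = 0.436). Ccl12 was 2.30, 0.39 and 0.89 against −1.87, −2.1 and −1.06 (2.87, SE 0.74, adjusted p = 0.716), and Ccl2 was 2.81, 0.41 and 1.32 against −0.64, −0.20 and −0.33 (1.91, unadjusted p = 0.0103). These 4 monocyte-attracting ligands did not overlap between the groups and were all highest in ECM replicate 1. The 8 listed monocyte genes had a median of 0.03, with 4 positive and 4 negative fold changes and 0 called. Their summed level, which includes the fibronectin gene Fn1, was 288 to 1132 CPM with ECM and 177 to 283 CPM with saline. Of the 2 lower genes, the chemokine Cxcl14 was 4.5, 4.46 and 5.04 with ECM and 6.19, 5.60 and 6.25 with saline (−1.35, unadjusted p = 0.00514), and the dendritic cell receptor Xcr1 was −0.65, −1.10 and −0.18 against 0.32, 0.36 and 0.58 (−1.07, unadjusted p = 0.00672).

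The genes with the 10 smallest p-values in each direction, predicted genes left out, were listed after their values were seen. Beside the 4 called genes, Ccl8 and Ccl7, the higher ones were Ch25h, Fcrlb, Smarca1 and Scn1a. Ch25h, an enzyme that hydroxylates cholesterol, was 4.92, 1.16 and 1.85 with ECM and −1.53, −2.06 and −1.07 with saline (4.2, SE 0.82, adjusted p = 0.119). Fcrlb, an Fc receptor-like protein, was 3.36, −0.61 and 0.73 against −2.68, −3.65 and −1.74 (3.85, adjusted p = 0.41). Smarca1, a chromatin remodeller, moved little but evenly: 2.86, 2.56 and 3.10 against 1.99, 1.98 and 2.06 (0.83, SE 0.20, adjusted p = 0.475). The sodium channel gene Scn1a was 1.25, 1.57 and 1.54 against −0.76, −1.61 and 0.18 (2.18, adjusted p = 0.716).

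Pan-macrophage genes were higher on average with ECM, without a call. All 13 of the list were measured and 13 had a positive fold change (54.2% of all genes did). At an unadjusted p under 0.05, 2 were higher (1.98% of all genes). The ECM libraries lay above all saline libraries for 3 (4.53% of all genes), and the median was 1.01. Cd84, an adhesion receptor of leukocytes, was 5.82, 3.86 and 5.31 against 3.01, 2.65 and 3.06 (2.09, unadjusted p = 0.029). The scavenger receptor Msr1 was 3.95, 2.11 and 2.67 against 0.92, 0.70 and 0.81 (2.1, unadjusted p = 0.039). Cd68, the lysosomal macrophage marker, did not overlap either, at 5.42, 3.49 and 4.96 against 3.28, 3.03 and 3.49. Emr1, which encodes F4/80, and Lyz2, lysozyme, overlapped (5.42, 3.47 and 5.0 against 4.19, 3.55 and 3.05, and 7.86, 6.91 and 8.33 against 7.48, 7.11 and 7.21). The summed level of the list was 631, 243 and 609 CPM with ECM and 328, 254 and 272 CPM with saline, and the median log2 CPM of its genes was 5.28, 3.31 and 4.33 with ECM and 3.01, 2.65 and 3.05 with saline. ECM replicate 2 was thus lowest of the 6 by the sum and above all saline libraries by the median, and the part of macrophage level in the Arg1 and Chil3 results was not tested.

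Genes of lipid-associated macrophages and giant cells, the cells that form on implants, were measured for 20 of 20, with 8 above without overlap (4.53% of all genes were), 1 higher at an unadjusted p under 0.05 (1.98% of all genes), 0 called and a median of 0.72. Trem2, a lipid receptor, was 5.98, 3.55 and 5.38 against 2.75, 1.99 and 2.54 (2.54, unadjusted p = 0.0611). Atp6v0d2, a proton pump subunit of fused macrophages, was 4.64, 2.91 and 4.30 against 1.33, 1.03 and 1.24 (2.75, unadjusted p = 0.0716), and Mmp12, macrophage elastase, was 7.56, 6.16 and 7.20 against 4.63, 4.71 and 4.38 (2.40, SE 1.96). These genes scattered widely in the MRL PE group, at −0.90, 12.81 and 5.53 for Mmp12, and all groups enter the shared variance. The part of this scatter in the p-values was not tested. Trem2, Atp6v0d2 and Mmp12 were called in 0 of 15 alternative fits (lowest adjusted p of 0.106, 0.166 and 0.33, limma). The PE libraries were higher still, at 11.11 to 12.60 for Mmp12 and 6.99 to 8.64 for Trem2.

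Among matrix proteases, 3 of 24 genes were higher at an unadjusted p under 0.05 and 0 lower (1.98% and 2.01% of all genes), with 6 above and 1 below without overlap (4.53% and 3.74%) and a median of 0.57. Mmp13, a collagenase, was 5.61, 3.39 and 5.95 with ECM and −1.0, −1.19 and −0.28 with saline (5.80, SE 1.55, adjusted p = 0.722). Adam8 was 6.61, 3.93 and 5.22 against 2.18, 1.52 and 3.44 (2.88, unadjusted p = 0.0245), and the urokinase receptor Plaur was 3.36, 1.49 and 2.73 against 0.25, 0.19 and 0.75 (2.13, unadjusted p = 0.0487). The 30 genes of matrix and fibrosis had a median of 0.08, which was −0.32 without saline replicate 2. Postn, the matricellular protein periostin, was 7.79, 7.47 and 8.29 with ECM and 6.64, 4.75 and 7.36 with saline (1.60, unadjusted p = 0.0461), with saline replicate 2 the lowest. Fibronectin, Fn1, was 10.07, 8.04 and 8.46 against 7.65, 7.17 and 8.0 (1.25, unadjusted p = 0.0951).

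Genes of interstitial fibroblasts lay lower with ECM, and no member passed the test. All 12 listed genes were measured and all 12 had a negative fold change, 4 had an unadjusted p under 0.05 (2.01% of all genes were lower by that measure), and ECM libraries lay below all saline libraries for 7 (3.74% of all genes). The median was −0.71, and it was −0.86 without saline replicate 2 and −0.44 without saline replicate 3. Pdgfra, the receptor that defines fibro-adipogenic progenitors, was 4.82, 4.06 and 4.40 with ECM and 5.82, 5.02 and 5.57 with saline (−1.04, SE 0.32, adjusted p = 0.976, unadjusted p = 0.00417). Pi16, a marker of a perivascular fibroblast subset, was 4.13, 4.53 and 4.03 against 5.48, 6.98 and 5.23 (−1.67, SE 0.44, adjusted p = 0.722). Clec3b was 4.83, 4.81 and 5.25 against 5.82, 6.10 and 5.88 (−0.97, unadjusted p = 0.00958), and Ly6a, which encodes Sca-1 and is 97.3% identical to Ly6c1 over nearly all of the shorter transcript, was 4.59, 4.76 and 4.91 against 5.73, 5.66 and 5.67 (−0.93, unadjusted p = 0.013). Decorin, Dcn, was 7.77, 7.55 and 7.98 against 8.40, 7.99 and 8.59 (−0.56, unadjusted p = 0.114). The summed level of the list was 584, 581 and 789 CPM with ECM and 1085, 902 and 1152 CPM with saline, so the sums did not overlap. Uninjured B6 muscle spanned 648 to 933 CPM and so overlapped the sums of both groups.

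The genes with the 10 smallest p-values on the lower side, listed after their values were seen, were led by Scara5, Gpc3 and Tnxb. Scara5, a ferritin receptor of stromal cells on chromosome 14 (65903844 to 66002275, plus strand), was 3.80, 3.74 and 3.51 with ECM and 5.27, 5.36 and 4.96 with saline, and 4.95 to 5.36 in uninjured muscle. The ECM libraries were tight and below all of these (−1.52, SE 0.27, adjusted p = 0.0672). Gpc3, a heparan sulfate proteoglycan of the cell surface on chromosome X (51361303 to 51703137, minus strand), was 2.87, 2.44 and 2.87 against 4.06, 4.82 and 4.17 (−1.63, SE 0.31, adjusted p = 0.091). Tenascin-X, Tnxb, was 1.89, 0.98 and 0.91 against 2.80, 3.05 and 3.42 (−1.83, SE 0.39, adjusted p = 0.238). Each of these 3 genes was lower with ECM in 3 of 3 libraries. Smoc2, a matricellular protein, was 5.71, 5.72 and 5.80 against 6.79, 6.71 and 6.52 (−0.93, SE 0.21), and the secreted glycoprotein Myoc was 4.99, 4.65 and 4.26 against 6.04, 6.26 and 6.17 (−1.52, SE 0.35). Serping1, the C1 inhibitor of the complement cascade, was 5.01, 4.98 and 5.22 against 6.5, 6.11 and 6.26 (−1.22, SE 0.32). The others were Pi16, the guanylate cyclase subunit Gucy1b3 (−0.92), the nucleotide receptor P2ry13 (−1.95) and the synaptic protein Prrt2 (−1.32), and none passed at an adjusted p of 0.05. Scara5 was called in 4 of 15 alternative fits (limma): without saline replicate 3 (−1.63, adjusted p = 0.0479), quantile normalization (0.0362), library weights (0.00125) and the replicate block (0.0271). Gpc3 was called in 2 of 15, with quantile normalization (adjusted p = 0.0362) and library weights (0.0137). Smoc2, Myoc and Serping1 were each called in 1 of 15 and P2ry13 in 1 of 14. Tnxb, Pi16, Gucy1b3 and Prrt2 were called in 0 of 15.

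**Figure D4:**
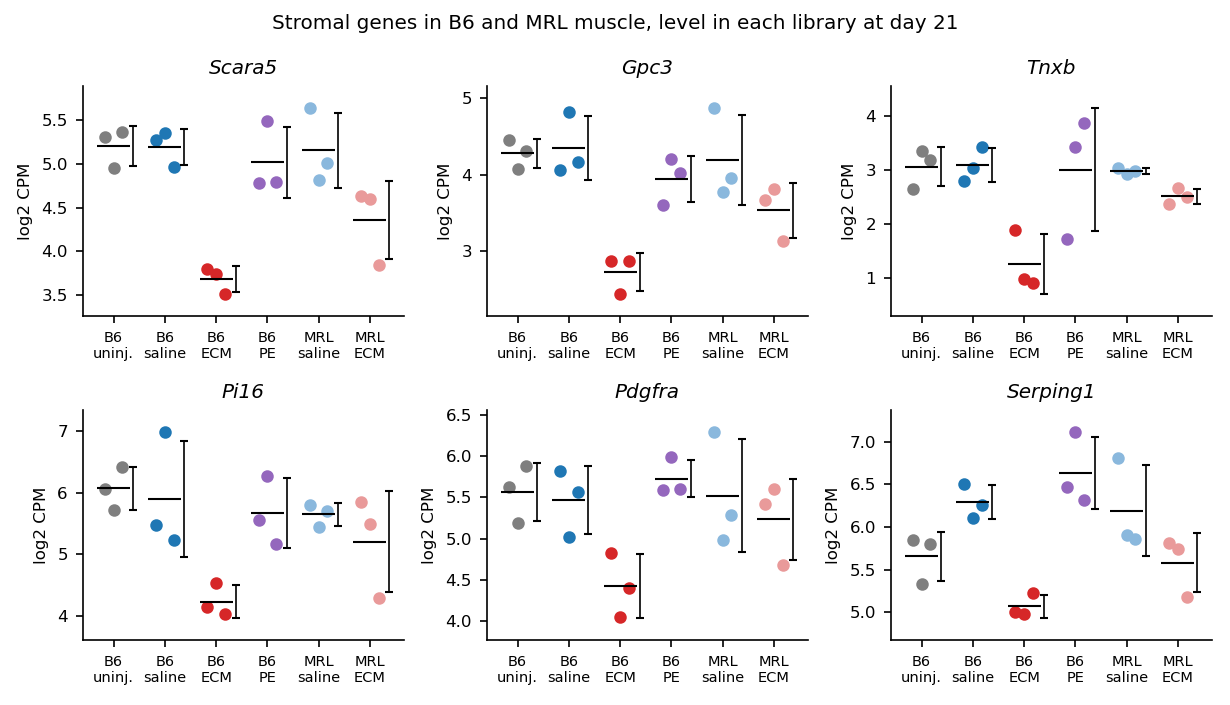
Log2 CPM of Scara5, Gpc3, Tnxb, Pi16, Pdgfra and Serping1 in 6 groups of 3 libraries each, with every library as a point in replicate order, the mean as a line and ± 1 SD as a bar to its right; the axes do not start at 0. The 3 B6 ECM libraries lie below all B6 saline libraries and all uninjured B6 libraries for each of the 6 genes.

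Muscle genes had a median near that of all genes for regeneration and a lower one for adult fibres. The regeneration median moved in opposite directions without saline replicate 2 and without saline replicate 3. Of 22 measured regeneration genes 0 were called. At an unadjusted p under 0.05, 0 were higher and 1 lower (1.98% and 2.01% of all genes). The median of these genes, −0.03, became −1.15 without saline replicate 2 and 0.60 without saline replicate 3. Their summed level was 2388, 2919 and 2378 CPM with ECM and 2755, 1087 and 3057 CPM with saline, against 791 to 1334 CPM in uninjured muscle. The lower gene was Pax7, the transcription factor of satellite cells, at 1.08, 1.71 and 0.24 with ECM and 2.17, 1.96 and 2.19 with saline (−1.10, SE 0.34, unadjusted p = 0.00482). Adult fibre genes had a median of −0.37 over 30 genes, 0 of them at an unadjusted p under 0.05. Of the 30 genes 23 had a negative fold change, while 54.2% of all genes had a positive one. Only 1 lay below without overlap (3.74% of all genes did): Myh1, a fast myosin heavy chain, at 12.11, 12.99 and 11.85 against 13.56, 13.87 and 13.17. The Myh1 transcript is over 90% identical to that of Myh2. Oxidative phosphorylation (89 genes, median −0.04), ribosomal protein (86 genes, −0.01), adipocyte (20 genes, −0.11) and interferon-induced genes (20 genes, −0.08) were near the median of all genes. The adipocyte sum was 2664, 3644 and 11344 CPM with ECM and 5384 to 5890 CPM with saline, so a single ECM library was the highest of the 6.

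Other cell types gave values that rested on single libraries or few genes. The red cell list had a median of −1.53, with Hba-a1 at 4.98, 5.04 and 4.93 with ECM and 6.21, 8.48 and 5.54 with saline, and the median became −0.71 without saline replicate 2. Hba-a1 is 94.9% identical to Hba-a2. B and plasma cell genes had a median of 0.94 and 0.09 without ECM replicate 2, the library in which the joining chain Igj stood at 4.71 and the light chain Igkc at 4.70, against 0.46 and −0.44 in ECM replicate 1 and 0.65 and −0.14 in ECM replicate 3. T cell genes (9 of 17 measured) had a median of 0.59, and 0.05 without saline replicate 2. MHC class II genes had a median of 0.74, with 1 of 9 above without overlap (4.53% of all genes were) and 0 at an unadjusted p under 0.05. Endothelial genes had a median of −0.23 with 1 of 14 lower at an unadjusted p under 0.05 (2.01% of all genes were).

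**Figure D5:**
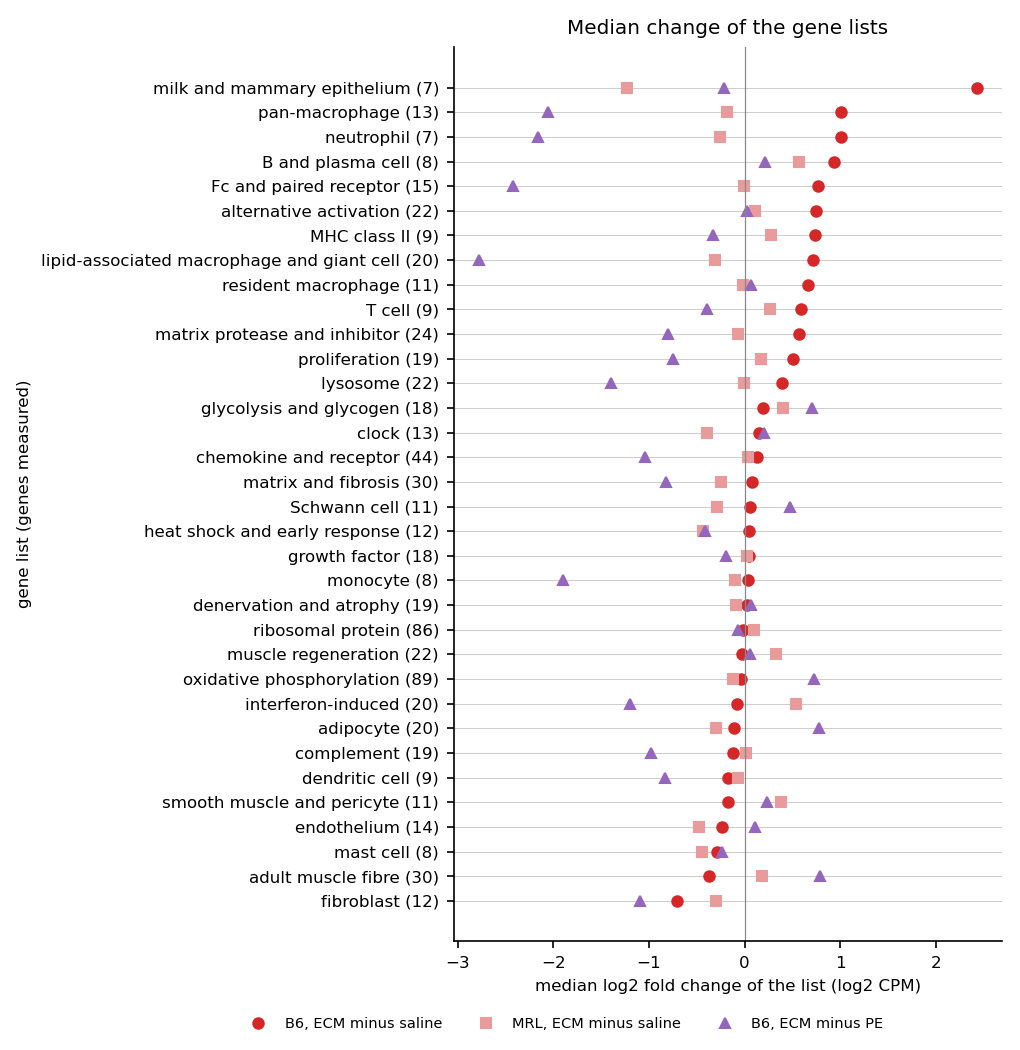
Median log2 fold change of each gene list with at least 7 measured genes (number in brackets; the lists of the study's own genes are not drawn), for ECM minus saline in B6 mice (circles), ECM minus saline in MRL mice (squares) and ECM minus PE in B6 mice (triangles). The B6 ECM against saline medians drawn run from −0.71 for fibroblast genes to 1.01 for pan-macrophage and 2.43 for milk genes.

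The same treatment contrast in MRL mice, in 6 other libraries, called 1 gene, Mrgprg (0.00706% of genes; 5.0, SE 0.74, adjusted p = 0.0278). Mrgprg was at 1.96, 2.15 and −0.08 with ECM and at a count of 0 in all 3 saline libraries, so it was higher with ECM in 3 of 3 libraries of each strain. This MRL call was lost in 5 of 6 fits with 1 library left out (adjusted p of 0.0679 to 0.461, limma), all but the fit without MRL ECM replicate 3, and with log2(CPM + 1) (adjusted p = 0.155), a term for the second index (0.68), the MRL groups alone (0.532) and the filter, which removes it. Rnase2a was 1.13, 1.26 and 2.09 with ECM and −1.07, −2.32 and −1.08 with saline in MRL mice (2.99, SE 0.62, unadjusted p = 0.000121, adjusted p = 0.86). Chil3 did not separate the MRL groups, at −3.65, −3.01 and −1.58 against −1.63, −2.33 and −3.65, and Arg1 was 1.30, 1.25 and 1.47 against 0.14, −0.23 and 0.90 (1.07, SE 0.83). The difference in response between the strains, tested as an interaction, passed for 0 of 14159 genes (limma; 320 at an unadjusted p under 0.05, 2.26%). In limma it was 6.38 for Chil3 (SE 1.29), 4.39 for Arg1 (SE 1.18), 3.53 for Rnase2a (SE 0.88) and −0.49 for Mrgprg (SE 1.05), each with an adjusted p of 1.0. Chil3 thus had the widest gap between the strains among the 4 called genes, and that gap did not pass the adjusted test. The 4 genes were chosen by their B6 difference, which is part of this interaction. The sizes and order of these gaps are therefore no independent evidence of a strain difference. Scara5 was also lower with ECM in MRL mice (−0.80, SE 0.27, unadjusted p = 0.00898). Its difference from B6, with the same limit, was −0.72 (SE 0.39, unadjusted p = 0.0785).

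The comparison with PE uses the same 3 ECM libraries, so for genes chosen for their ECM level it is no independent evidence, and its values are given side by side only. The fold changes were 6.42 for Rnase2a (adjusted p = 4.14e-05), 5.08 for Chil3 (0.0382), 4.07 for Arg1 (0.0481) and 3.60 for Mrgprg (0.0494), beside 28 genes lower with ECM (32 of 14159 genes in all, 0.226%, of which 4 higher, 0.0283%; limma, adjusted p). These counts were not stable: 1 to 53 genes were called with 1 library left out, 5 or fewer in all of these fits but the one without PE replicate 3 (53), 3 with equal totals, 0 with the filter and 3720 with library weights. Rnase2a was called in 6 of 6 such fits, Chil3 and Mrgprg in 1 each (without ECM replicate 2 and without PE replicate 3) and Arg1 in 0. Rnase2a was at −2.27, −3.03 and −3.13 with PE, near the saline level, and Arg1 was at 1.40, 3.77 and 2.19. Scara5 (−1.34, adjusted p = 0.0481) and Serping1 (−1.57, adjusted p = 0.0481) fell against PE (0.198% of genes did), and each kept its call in 1 of 6 fits with 1 library left out, the one without PE replicate 3. Pan-macrophage genes ran the other way, with a median of −2.05 and a summed level of 1631 to 5843 CPM with PE against 243 to 631 CPM with ECM. The PE libraries therefore held more of the general macrophage transcripts and less Arg1 and Chil3 than the ECM libraries.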

How the data were processed

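Paired-end bulk RNA-seq reads of 24 whole quadriceps muscles were processed by the authors with kallisto against the Ensembl mouse cDNA (GRCm39) and collapsed to gene level in tximport (lengthScaledTPM). Genes over 1 CPM in 3 or more libraries were retained, TMM scaling in edgeR was applied, and the authors deposited the result as log2 CPM, computed with a prior count of 2. A count of 0 therefore stands at −3.65, libraries average 25149678 effective reads, and 3 counts equal 0.119 CPM. Values are not counts, so no count test was used. The number of reads limits low levels and 3 libraries per group limit every comparison.

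Groups came from the sample labels. They were compared with limma 3.58.1 in R 4.3.3 as deposited, in 1 model of 8 group means and 24 libraries with a variance trend, 2-sided tests and Benjamini-Hochberg adjustment over all 14159 genes (1 row lacks a symbol). The labels do not say that replicates are separate mice, although the study does, so p-values measure the spread between these samples. On data simulated for B6 ECM versus saline (14159 genes, 200 changed), 87% of changes of 3 and 57% of changes of 1.5 on the log2 scale were called, with 8 false calls. The simulation gave each gene normal noise with the same spread in every library. The real libraries differed in spread, with fitted weights of 2.36, 0.43 and 0.22 for saline replicates 1, 2 and 3. These shares are therefore no measure of the power in the real comparison.

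Gene lists, genes and the comparison were chosen with earlier results of these data known. Named genes were called genes without overlap (at most 15 each way), the first 3 and the 8 lowest p-values of each list, and genes the study names. The genes with the 10 lowest p-values in each direction, Acta1, Ncam1 and the copies were named after values were seen. Lists are described by counts and medians without a set test. Positions come from GENCODE vM39, in which 338 of 344 such genes were found. Copies were BLAST matches with 90% identity or more that cover 50% or more of the shorter sequence. Alternatives were log2(CPM + 1), equal totals, quantile normalization, a filter at a mean log2 CPM of 1, library weights, no variance trend, a replicate block, a term for the second index, the compared groups only and each library left out.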

Additional observations from a re-analysis of the deposited data

How the results depend on the processing

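The median log2 fold change of all genes stayed between −0.01 and 0.08 under the alternatives. For B6 ECM versus saline, 4 genes were called; 1 was called with a filter at a mean log2 CPM of 1 (which removes Rnase2a, Chil3 and Mrgprg), 81 with library weights (55 higher, 26 lower, all 4 among them), 2 with a term for the second index (Rnase2a and Apod) and 0 with the compared groups only. Leaving out 1 library gave 1 to 14 genes: 1 without ECM replicate 1, saline replicate 1 or saline replicate 2, and 14 without saline replicate 3, which alone among the 6 has another first index; 9 of the 10 added genes have predicted or pseudogene symbols. Same-numbered libraries did not deviate together (residual correlations of −0.07, 0.06 and 0.08), and the replicate block called 5 genes, with the same 4 plus Scara5; it called 1 in MRL mice, 0 for the difference in response and 31 against PE. For MRL ECM versus saline, 1 gene was called, 0 with log2(CPM + 1), the filter or the second index, 11 with library weights, and 0 to 1 without 1 library (0 in 5 of 6). For the difference in response, 0 were called, 4 with library weights and 0 to 6 without 1 library. Against PE, 32 were called, 121 with log2(CPM + 1), 3 with equal totals, 0 with the filter, 3720 with library weights, 282 with the second index, 166 with the compared groups only, and 1 to 53 without 1 library. The causes of these shifts were not tested beyond the fewer genes or samples that a setting holds. Of 1163 refits of single genes, 1112 kept direction and side of the threshold, 21 gained a call and 18 lost one. Siglecf (−0.02) turned to 0.037 with log2(CPM + 1), 0.042 with equal totals, 0.17 with library weights and 0.082 with the second index, and spanned −0.54 to 0.70 when 1 library was left out. Myl4 (0.74) turned to −0.12 with library weights, −0.42 with the second index and spanned −0.83 (without saline replicate 2) to 1.66 when 1 library was left out, and Ncam1 (−0.45) spanned −1.72 (without saline replicate 2) to 0.23. Of 598 list medians, 575 moved by less than the spread between replicates.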
